A study of Gallus gallus with 8 samples.

Results

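Lhasa White and White Leghorn chicken embryos were compared through the messenger RNA of their hearts at 16 days of incubation, with 2 libraries per breed. These are 4 of the 8 libraries of the series. The other 4 came from the Linzhi Tibetan and Chahua breeds, 2 libraries each, and entered the tests only as a measure of the spread between libraries. The 4 breeds share tissue, stage and protocol, and no treatment is recorded for any of them. The labels write the second breed as White leghom, read here as White Leghorn. They give no sex, no altitude or oxygen level of incubation and no statement of whether a library is 1 embryo or a pool. Whether the libraries of a breed are separate embryos is not stated either, and the p-values below reflect only how far these libraries spread, which may be technical.

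Lhasa White is named after the capital of Tibet, on a high plateau, and White Leghorn is a commercial layer line. A chick embryo depends on oxygen that diffuses through the shell, and its heart and vessels are among the organs that adjust when oxygen is scarce. Cells sense low oxygen through the HIF transcription factors, which prolyl hydroxylases mark for destruction while oxygen is plentiful. Once stable, the factors raise genes for glycolysis, vessel growth and vessel tone, such as those for vascular endothelial growth factor and adrenomedullin.

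In birds the female carries the W chromosome, and a heart library shows it through W-linked transcripts. ATP5A1W, a W-linked copy of an ATP synthase subunit gene, had 4.02 and 398 RPKM in the first and the second Lhasa White library, against 409 and 0.241 RPKM in the first and the second White Leghorn library. RPKM correct a gene's reads for its length and for library depth. W-linked transcripts were therefore high in library 2 of Lhasa White and in library 1 of White Leghorn. These were set against each other as the W-positive pair, and Lhasa White 1 against White Leghorn 2 formed the W-negative pair. Below, values are given for library 1 and then library 2 of a breed, and differences are those of log2(RPKM + 1), Lhasa White minus White Leghorn, which understate the change of low genes.

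The libraries held 19055988 to 20121450 mapped reads in Lhasa White and 19587417 to 20027198 in White Leghorn, as fitted from the RPKM values. The median tested gene had 455 and 458 reads in Lhasa White and 449 and 430 reads in White Leghorn. Heart muscle transcripts were abundant in all 4: the 30 tested sarcomere genes summed to 47240 and 39880 RPKM in Lhasa White and to 47245 and 47294 RPKM in White Leghorn. Lhasa White 2 stood apart. It correlated with Lhasa White 1 at 0.952 across genes, against 0.983 between the 2 White Leghorn libraries, and 728 genes (6.3% of 11556 tested) differed 2-fold between the Lhasa White libraries, against 149 (1.29%) between the White Leghorn libraries. Some transcripts known from atrium, connective tissue and nerve were high in it and its ventricular marker sum was low, so each result is given for both pairs.

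Matching by W state removed the offset of the Z chromosome, of which a female carries 1 copy and a male 2. The 457 tested Z-linked genes had a median difference of 0.04 in the W-positive pair and 0.05 in the W-negative pair, close to the medians of 0.04 and 0.02 over all genes. With libraries of equal number set against each other, the Z-linked medians were 0.39 for number 1 and -0.30 for number 2. Symbols were matched to the GRCg7b gene table for the chromosome of each gene.

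**Figure D1:**
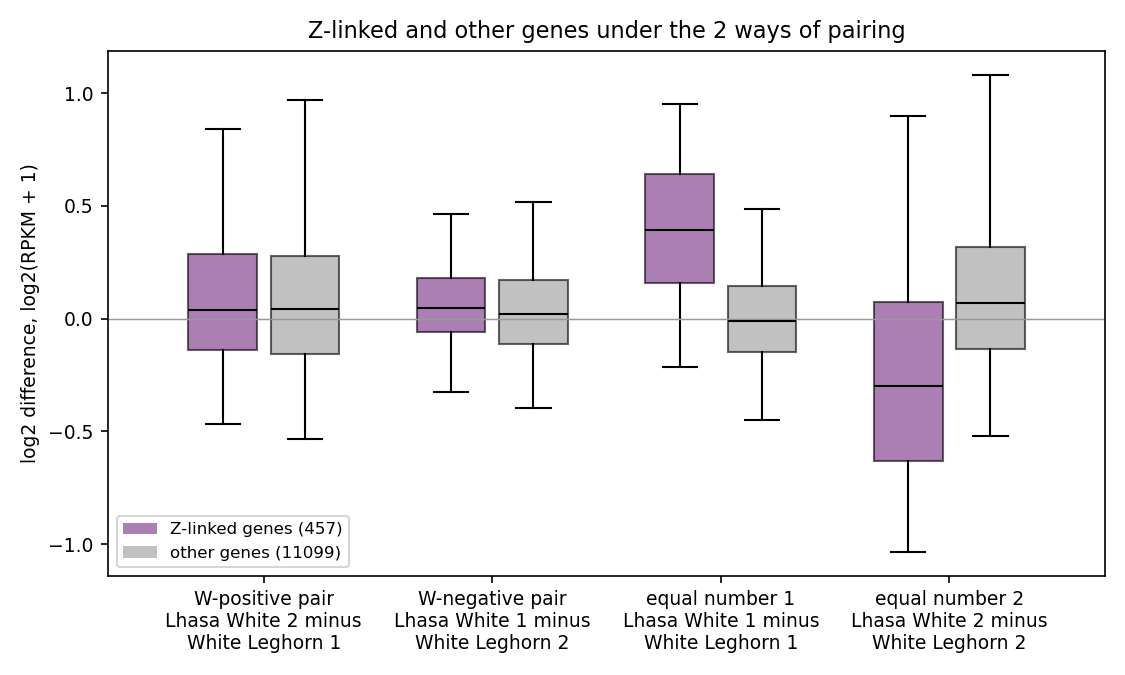
Differences in log2(RPKM + 1), Lhasa White minus White Leghorn, for 457 Z-linked genes (purple) and 11099 other genes (grey), with libraries paired by W state (left) or by equal number (right). Boxes span the quartiles around the median and whiskers the 5th to 95th percentiles. The Z-linked median is 0.04 and 0.05 under W matching and 0.39 and -0.30 under equal numbers.

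No gene passed an adjusted p of 0.05 between the breeds in limma, with W state as a covariate. The smallest adjusted p was 0.157, and 507 of 11556 genes (4.39%) lay at an unadjusted p under 0.05, 357 of them higher (3.09%) and 150 lower (1.3%) in Lhasa White. On reads recovered from the RPKM values, limma's voom also called 0 genes, with 559 at an unadjusted p under 0.05. The genes named here are therefore those with the smallest p, those past 2-fold the same way in both pairs and those of pathway lists, given as measured levels.

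The pairs shared some of their largest differences. In both, 31 genes (0.268% of those tested) were at least 2-fold higher in Lhasa White and 15 (0.13%) at least 2-fold lower, 46 in all (0.398%). Another 24 genes (0.208%) were 2-fold apart in opposite ways. Of these, 11 (0.0952%) were higher in the W-positive and lower in the W-negative pair, and 13 (0.112%) the reverse. Among the 46 genes, 14 have no symbol, 10 higher and 4 lower. With libraries of equal number paired instead, 29 genes were higher and 18 lower in both pairs and 60 went opposite ways. Across genes the differences of the 2 matched pairs correlated at 0.208, with no test, since genes are not independent replicates. Against the other 2 breeds, Lhasa White stood above all 6 other libraries in 10 of the 31 higher genes, and White Leghorn stood below all 6 others in 11. Over all tested genes these shares were 4.02% and 4.47%. Among the 15 lower genes, Lhasa White was below the other 6 libraries in 6 and White Leghorn above the other 6 in 9, against 1.55% and 5.88% of all genes. Both sets were picked for a gap between Lhasa White and White Leghorn, which favours such ranks. Their counts are therefore not on equal terms with the shares of all genes. Just inside the 2-fold limit lay HNMT, with 1.01 in the W-positive pair, and WBSCR17, with 1.01 in the W-negative pair. Just outside it lay GRIN3B at 0.99 in the W-positive pair and RSFR at 0.99 in the W-negative pair.

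**Figure D2:**
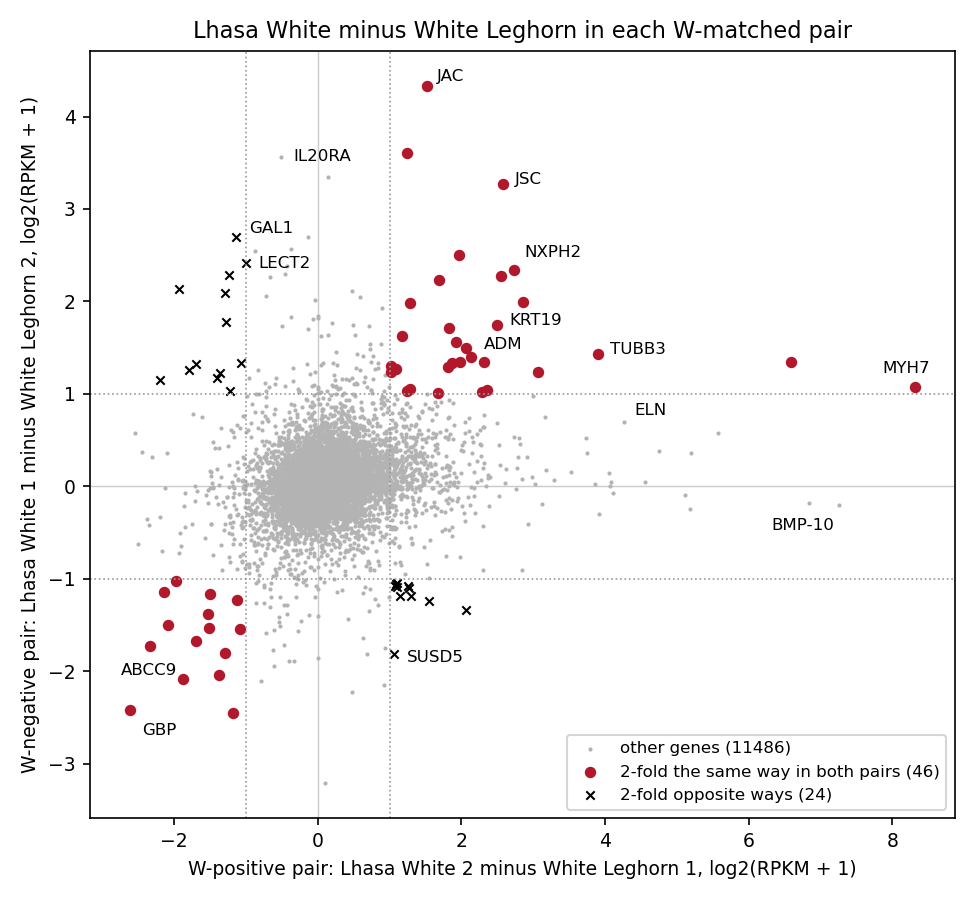
Each point is a gene, with its Lhasa White minus White Leghorn difference in log2(RPKM + 1) in the W-positive pair on the x axis and in the W-negative pair on the y axis. Dotted lines mark 2-fold. Red points are the 46 genes past 2-fold the same way in both pairs, crosses the 24 past it opposite ways. GBP and ABCC9 lie far down on both axes, NXPH2 far up on both, whereas MYH7 and BMP-10 reach much farther along the x axis than along the y axis.

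GBP had the smallest p of the genes with a symbol, and ENSGALG00000000187, which has none and is described with the higher genes, a marginally smaller one. GBP is the symbol the files give to ENSGALG00000026152, and guanylate-binding proteins are GTPases induced by interferon that restrict pathogens inside cells. It lay at 0.901 and 0.895 RPKM in Lhasa White, against 10.6 and 9.17 RPKM in White Leghorn. These are 34 and 32 reads in Lhasa White and 400 and 337 reads in White Leghorn, and the breeds did not overlap. The means were 0.898 ± 0.00395 RPKM in Lhasa White and 9.91 ± 1.04 RPKM in White Leghorn (SD, n = 2 each). The difference was -2.52 (SE 0.25, limma adjusted p = 0.157), with -2.62 in the W-positive and -2.42 in the W-negative pair. Linzhi Tibetan lay between them at 2.65 and 4.43 RPKM and Chahua above both at 18.8 and 15.3 RPKM, so Lhasa White held the lowest 2 of 8 values. Reads shared with other guanylate-binding genes cannot be told apart in these values.

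Other interferon and antigen genes had no common direction. Among 24 tested interferon-induced genes, 9 (37.5%) were higher and 7 (29.2%) lower in both pairs, against 35.2% and 24% of all genes. Their medians were -0.01 in the W-positive and 0.03 in the W-negative pair. BFIV21, which encodes an MHC class I heavy chain that presents peptides to T cells, was at 19.7 and 18.9 RPKM in Lhasa White, against 56.2 and 52.7 RPKM in White Leghorn. The difference was -1.45 (SE 0.39, limma adjusted p = 1), and the White Leghorn values were the highest of all 8 libraries. Linzhi Tibetan spanned both levels at 17.5 and 44.6 RPKM, and reads of this polymorphic family may map differently between breeds, which was not tested. DMB2, which encodes a chain of the peptide-loading helper of MHC class II, stood at 1.03 and 1.57 RPKM in the Lhasa White libraries and at 2.30 and 2.52 RPKM in White Leghorn. Of the 14 tested MHC and antigen-processing genes, 6 (42.9%) were higher and 6 (42.9%) lower in both pairs.

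ABCC9 followed GBP. It encodes SUR2, the sulfonylurea receptor subunit of the ATP-sensitive potassium channel, which couples the energy state of heart and vessel muscle to its membrane voltage. Its levels were 9.46 and 8.02 RPKM in Lhasa White, against 44.5 and 33.5 RPKM in White Leghorn. The difference was -2.03 (SE 0.23, limma adjusted p = 0.213), with -2.33 in the W-positive and -1.72 in the W-negative pair. White Leghorn was the breed apart here: Linzhi Tibetan lay at 12.9 and 9.41 RPKM and Chahua at 12.9 and 15.2 RPKM, and Lhasa White 1 overlapped them. The depth behind these levels was 1358 and 1091 reads in Lhasa White and 6359 and 4690 reads in White Leghorn.

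The genes of the pores that SUR2 partners with had small positive differences on average. KCNJ8, which encodes the pore Kir6.1, lay at 10.9 and 15.2 RPKM in Lhasa White, against 8.91 and 9.72 RPKM in White Leghorn (0.43, SE 0.22). Its difference was 0.70 in the W-positive and 0.15 in the W-negative pair. KCNJ11, which encodes the pore Kir6.2 and was chosen after its values were seen, was at 2.53 and 8.02 RPKM in the Lhasa White libraries and at 3.39 and 3.07 RPKM in White Leghorn. The breeds overlapped for KCNJ11 (0.42, SE 0.39), with 1.04 in the W-positive and -0.21 in the W-negative pair. Among the 20 tested ion channel genes, 6 (30%) were higher and 3 (15%) lower in both pairs, against 35.2% and 24% of all genes. GJA1, the gene of the gap junction protein connexin 43, stood at 23.3 and 19.9 RPKM in Lhasa White, against 12.7 and 11.9 RPKM in White Leghorn (0.76, SE 0.24, limma adjusted p = 1). KCNH2, the gene of the repolarising hERG potassium channel, lay at 9.03 and 8.43 RPKM in the Lhasa White libraries and at 4.86 and 6.42 RPKM in White Leghorn. For both genes, Lhasa White was above all 6 other libraries, against 4.02% of all tested genes. Their choice by small p favours this.

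Enzymes and signalling genes filled most of the other named places on the lower side. PDE1B, a calcium-dependent phosphodiesterase that degrades cyclic nucleotides, was at 11.4 and 5.15 RPKM in Lhasa White, against 26.2 and 26.5 RPKM in White Leghorn (-1.64, SE 0.28, limma adjusted p = 0.696). White Leghorn was above all 6 other libraries for it. DERA, which breaks down deoxyribose phosphate, stood at 21.8 and 15.8 RPKM in Lhasa White, against 70.5 and 63.4 RPKM in White Leghorn, while Chahua spanned 19.0 and 78.5 RPKM. DACT2, a modulator of Wnt and nodal signalling, lay at 3.66 and 3.39 RPKM in the Lhasa White libraries and at 16.3 and 8.47 RPKM in White Leghorn. The homeobox gene GBX2 was low in both, at 0.458 and 0.387 RPKM in Lhasa White and 3.49 and 3.67 RPKM in White Leghorn, and reached 14.8 RPKM in Linzhi Tibetan 1. HBG1, a globin gene whose reads may be shared with other globins, was at 0.949 and 2.54 RPKM in the Lhasa White libraries and at 6.73 and 3.56 RPKM in White Leghorn. The breeds did not overlap for any of these 5 genes, which being 2-fold apart in both pairs favours. Lhasa White lay below White Leghorn without overlap in 17.9% of all tested genes. The small RNA genes gga-mir-1748, gga-mir-3534 and SNORA17 (the copy ENSGALG00000026321) had 0 reads in both Lhasa White libraries and 2 to 5 reads in White Leghorn, which is too few to compare. An mRNA library does not capture such short RNAs well.

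Among genes that missed 2-fold in at least 1 pair, those with a symbol and the smallest p on this side were BBOX1, LFNG, NRTN, PGF and KLHL23, all with a limma adjusted p of at least 0.989. PGF, placental growth factor, is a vessel-growth ligand of the VEGF family. It lay at 9.04 and 7.98 RPKM in Lhasa White, against 20.3 and 16.1 RPKM in White Leghorn (-1.01, SE 0.23), the lowest and the highest pair of the 8 libraries. BBOX1, the last enzyme of carnitine synthesis, stood at 6.04 and 14.0 RPKM in the Lhasa White libraries and at 22.8 and 16.5 RPKM in White Leghorn, and Lhasa White was below all 6 others. LFNG, a glycosyltransferase that tunes Notch receptors, lay at 54.9 and 63.1 RPKM in the Lhasa White libraries and at 112 and 108 RPKM in White Leghorn. NRTN, the gene of the nerve growth factor neurturin, was at 6.41 and 4.57 RPKM in the Lhasa White libraries and at 10.6 and 12 RPKM in White Leghorn. KLHL23 lay at 3.31 and 3.47 RPKM in the Lhasa White libraries and at 8.25 and 6.6 RPKM in White Leghorn.

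On the higher side, the smallest p belonged to ENSGALG00000000187, which the files leave without a symbol and which was named after its values were seen. It had 8.57 and 7.18 RPKM in Lhasa White, against 0.400 and 0.981 RPKM in White Leghorn. The difference was 2.41 (SE 0.24, limma adjusted p = 0.157), with 2.55 in the W-positive and 2.27 in the W-negative pair, and the other 2 breeds lay at 0.413 to 0.603 RPKM, so Lhasa White alone was high. Of the genes with a symbol, NXPH2 came first. NXPH2, the gene of neurexophilin 2, a secreted ligand of neurexins, stood at 8.13 and 11.2 RPKM in Lhasa White, against 0.833 and 0.801 RPKM in White Leghorn. The difference was 2.54 (SE 0.35, limma adjusted p = 0.371), with 2.73 and 2.34 in the W-positive and the W-negative pair. Lhasa White was above and White Leghorn below all other libraries, which ranged from 1.47 to 3.96 RPKM. BMP3, a member of the bone morphogenetic protein family that opposes signalling by its relatives, lay at 11.7 and 13.3 RPKM in Lhasa White, against 2.92 and 4.03 RPKM in White Leghorn. Its difference was 1.60 (SE 0.26, limma adjusted p = 0.663), and both Lhasa White values lay above all 6 others. The means were 12.5 ± 1.10 RPKM in Lhasa White and 3.47 ± 0.782 RPKM in White Leghorn (SD, n = 2 each).

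ADM encodes adrenomedullin, a peptide that widens vessels and a textbook HIF target. It lay at 35.6 and 56.3 RPKM in Lhasa White, against 12 and 12.9 RPKM in White Leghorn (1.77, SE 0.30, limma adjusted p = 0.663). The breeds did not overlap, while Linzhi Tibetan was near White Leghorn at 11.2 and 10.1 RPKM, and Chahua reached into the Lhasa White range at 21.3 and 37.7 RPKM. Receptors for vessel-active signals were also among the 31 genes. AGTR1, the angiotensin II receptor, was at 6.47 and 10.8 RPKM in Lhasa White, against 2.35 and 2.05 RPKM in White Leghorn (1.55, SE 0.38). CYSLTR1, a leukotriene receptor, stood at 9.48 and 3.46 RPKM in the Lhasa White libraries and at 0.835 and 1.66 RPKM in White Leghorn. HNMT, the enzyme that inactivates histamine, lay at 50.6 and 46.6 RPKM in Lhasa White, against 22.6 and 19.9 RPKM in White Leghorn, the lowest of the 8 values. AGTR1, CYSLTR1 and HNMT were picked from the 31 after their values were seen.

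Further genes from the 31 have varied roles. CD9, a tetraspanin that organises adhesion proteins in the membrane, was at 2.78 and 6.47 RPKM in Lhasa White, against 0.894 and 0.484 RPKM in White Leghorn. EMP1, an epithelial membrane protein gene chosen after its values were seen, stood at 22.1 and 12.2 RPKM in Lhasa White, against 4.85 and 6.45 RPKM in White Leghorn. KRT19, an epithelial keratin gene, lay at 7.33 and 15.3 RPKM in the Lhasa White libraries and at 1.90 and 1.49 RPKM in White Leghorn, with Linzhi Tibetan at 0.888 and 9.53 RPKM. C7, a Z-linked complement component gene, was at 16.7 and 35.4 RPKM in the Lhasa White libraries and at 6.30 and 5.97 RPKM in White Leghorn. GIF, the gene of gastric intrinsic factor, which binds vitamin B12, stood at 6.18 and 28.9 RPKM in the Lhasa White libraries and at 3.13 and 0.799 RPKM in White Leghorn. In none of these 5 genes did the breeds overlap, and their limma adjusted p ranged from 0.989 to 1. Being 2-fold apart in both pairs favours this, and 25.1% of all tested genes had Lhasa White above White Leghorn without overlap.

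A few members rest on 1 library or few reads. TUBB3, a tubulin gene of neurons, lay at 2.04 and 20.7 RPKM in Lhasa White, against 0.460 and 0.128 RPKM in White Leghorn, so the Lhasa White libraries differed more than 2-fold themselves. JSC lay at 9.03 and 5.19 RPKM in Lhasa White, against 0.0407 and 0.0416 RPKM in White Leghorn, which is 2 reads in each White Leghorn library. JAC had 19.2 and 1.86 RPKM in Lhasa White and was listed at 0 in the other 6 libraries. SNORD24 (the copy ENSGALG00000017832), SNORD100 and gga-mir-214 had 3 to 7 reads in Lhasa White and 0 to 2 reads in White Leghorn.

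**Figure D3:**
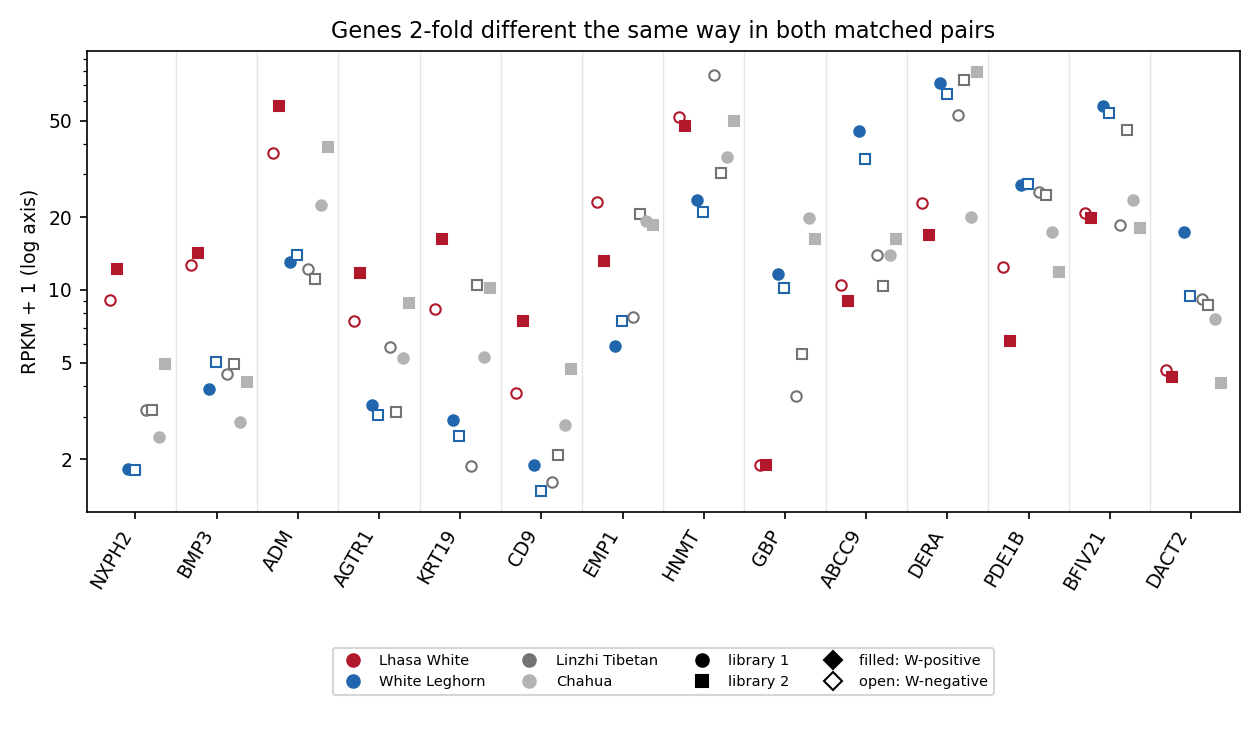
RPKM + 1 on a log axis in each library for 14 of the 46 genes past 2-fold the same way in both pairs. For each gene, Lhasa White (red) is followed by White Leghorn (blue), Linzhi Tibetan (dark grey) and Chahua (light grey), circles are library 1, squares library 2, and filled symbols W-positive. The red and blue symbols do not overlap for any of the 14 genes, which their choice favours, while the grey symbols often spread across both.

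Genes that HIF factors are known to induce leaned towards Lhasa White over White Leghorn in counts, with small differences. Of 43 tested, 22 (51.2%) were higher and 7 (16.3%) lower in both pairs, against 35.2% and 24% of all tested genes. The median difference was 0.17 in the W-positive and 0.12 in the W-negative pair, against 0.04 and 0.02 over all genes. The mean deviation from each gene's average over 8 libraries was 0.00 and 0.06 in Lhasa White and -0.09 and -0.15 in White Leghorn. It was 0.11 and -0.11 in Linzhi Tibetan and 0.03 and 0.15 in Chahua, so Lhasa White lay within their range. The list summed to 4323 and 3844 RPKM in Lhasa White and to 4336 and 4285 RPKM in White Leghorn. None of the 43 genes passed an adjusted p of 0.05 in limma, and 5 of the 43 lay at an unadjusted p under 0.05, all 5 higher. Over all tested genes, 3.09% were higher and 1.3% lower at that limit. The 5 genes were ADM, HK2, STC2, EDN1 and P4HA2. HK2, the hexokinase that opens glycolysis, was at 9.80 and 9.32 RPKM in Lhasa White, against 5.21 and 4.24 RPKM in White Leghorn (0.89, SE 0.20, limma adjusted p = 0.989). Linzhi Tibetan and Chahua lay at 7.42 to 9.95 RPKM, so White Leghorn was the low breed.

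The other 3 had smaller differences. STC2, a secreted stanniocalcin, stood at 20.8 and 17.2 RPKM in Lhasa White, against 12.5 and 10.4 RPKM in White Leghorn (0.69, SE 0.23). EDN1, the gene of the vessel-narrowing peptide endothelin 1, lay at 5.16 and 7.08 RPKM in Lhasa White, against 4.09 and 3.48 RPKM in White Leghorn (0.56, SE 0.20). P4HA2, a collagen prolyl hydroxylase gene, was at 6.58 and 12.6 RPKM in Lhasa White, against 6.47 and 5.10 RPKM in White Leghorn (0.59, SE 0.24). For EDN1 and P4HA2 the White Leghorn values were the lowest of the 8 libraries, whereas for STC2 the Lhasa White values were the highest. Small p favours such ranks, which 4.47% and 4.02% of all tested genes had.

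VEGFA, the gene of the main vessel growth factor, had a difference of the other sign. It lay at 76.0 and 61.6 RPKM in Lhasa White, against 82.7 and 84.0 RPKM in White Leghorn (-0.28, SE 0.15), and Lhasa White was below all 6 other libraries. CXCR4, a chemokine receptor, stood at 6.46 and 2.31 RPKM in the Lhasa White libraries and at 8.07 and 6.57 RPKM in White Leghorn. HMOX1, haem oxygenase 1, lay at 4.89 and 6.64 RPKM in the Lhasa White libraries and at 7.18 and 8.09 RPKM in White Leghorn. These last 2 and P4HA2 were named after their values were seen.

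The genes of the HIF machinery itself had small differences. HIF1A lay at 13.0 and 17.9 RPKM in the Lhasa White libraries and at 12.1 and 11.7 RPKM in White Leghorn (0.33, SE 0.28). EPAS1, which encodes HIF-2α, was at 54.6 and 59.6 RPKM in Lhasa White, against 51.5 and 52.8 RPKM in White Leghorn (0.13, SE 0.22). EGLN1, the oxygen-sensing prolyl hydroxylase gene, stood at 17.6 and 21.3 RPKM in the Lhasa White libraries and at 18 and 18.8 RPKM in White Leghorn, so the breeds overlapped (0.07, SE 0.17). HIF1AN, which encodes a second oxygen-dependent hydroxylase that acts on HIF, lay at 13.5 and 13.3 RPKM in Lhasa White, against 16.2 and 15.1 RPKM in White Leghorn (-0.20, SE 0.16). Of the 15 tested genes of this pathway, 5 (33.3%) were higher and 2 (13.3%) lower in both pairs, against 35.2% and 24% of all genes. In limma, 0 of the 15 lay at an unadjusted p under 0.05.

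The medians of energy metabolism lists were negative in the W-positive pair and slightly positive in the W-negative pair. The 54 tested nuclear genes of oxidative phosphorylation had a median of -0.25 in the W-positive and 0.05 in the W-negative pair, the 26 of fatty acid oxidation -0.23 and 0.05, and the 26 of glycolysis -0.19 and 0.03. In both pairs, 4 oxidative phosphorylation genes (7.41%) were higher and 15 (27.8%) lower, against 35.2% and 24% of all genes. The counts were 5 (19.2%) and 6 (23.1%) for fatty acid oxidation and 4 (15.4%) and 8 (30.8%) for glycolysis. Single genes stood out. LDHB, the heart-type subunit of lactate dehydrogenase, was at 551 and 484 RPKM in Lhasa White, against 1631 and 732 RPKM in White Leghorn (-1.08, SE 0.30, limma adjusted p = 1). The largest part of that difference came from White Leghorn 1, which lay above every other library. ENO2, an enolase gene typical of neurons, stood at 4.09 and 5.04 RPKM in the Lhasa White libraries and at 10.7 and 8.12 RPKM in White Leghorn (-0.90, SE 0.27).

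Cholesterol synthesis genes had a negative median in the W-negative pair only. Of 25 tested genes, 11 (44.0%) were lower and 4 (16.0%) higher in both pairs, against 24% and 35.2% of all genes. The median was 0.01 in the W-positive pair and -0.42 in the W-negative pair. FDFT1, the squalene synthase gene, lay at 5.94 and 9.12 RPKM in Lhasa White, against 14.1 and 12.5 RPKM in White Leghorn (-0.77, SE 0.19, limma adjusted p = 1). SQLE, squalene epoxidase, stood at 0.890 and 3.33 RPKM in the Lhasa White libraries and at 3.71 and 3.97 RPKM in White Leghorn. For both genes, White Leghorn stood above the other 6 libraries, against 5.88% of all tested genes. Their choice by small p favours this.

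Cell cycle genes had the opposite lean to the HIF targets. Of 54 tested, 30 (55.6%) were lower and 5 (9.26%) higher in both pairs, against 24% and 35.2% of all genes. In 27 of them both Lhasa White values lay below both White Leghorn values, against 17.9% of all genes. The median was -0.26 in the W-positive pair and -0.03 in the W-negative pair, and 0 of the 54 lay at an unadjusted p under 0.05. CENPA, the centromeric histone gene, lay at 22.5 and 17.1 RPKM in Lhasa White, against 32.4 and 31.1 RPKM in White Leghorn (-0.67, SE 0.31). TYMS, thymidylate synthase, was at 23.1 and 24.3 RPKM in the Lhasa White libraries and at 33 and 31.9 RPKM in White Leghorn (-0.44, SE 0.27). NUF2, a kinetochore gene, stood at 39.4 and 32.1 RPKM in the Lhasa White libraries and at 52.3 and 47.3 RPKM in White Leghorn. GINS1, of the replication complex, lay at 15.9 and 18.9 RPKM in the Lhasa White libraries and at 22.6 and 23.6 RPKM in White Leghorn. In bulk hearts, fewer cells of a type and less RNA per cell cannot be told apart.

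**Figure D4:**
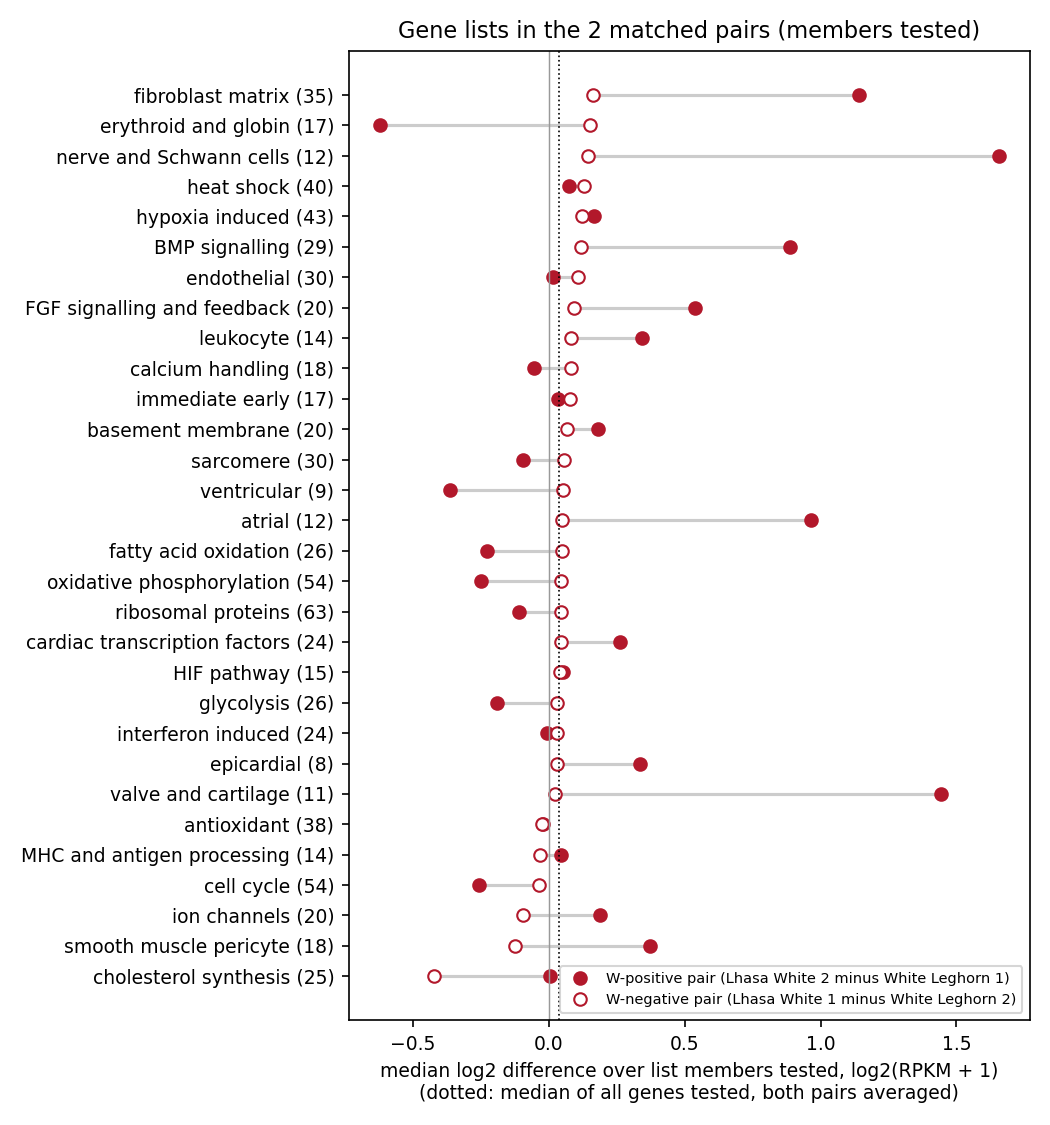
Median difference in log2(RPKM + 1), Lhasa White minus White Leghorn, over the tested members of 30 gene lists (number in brackets), for the W-positive pair (filled) and the W-negative pair (open). Matrix, nerve, valve and atrial lists have long bars because their medians are much higher in the W-positive than in the W-negative pair, whereas the HIF-induced genes lie at 0.17 and 0.12. The dotted line is the median of all genes.

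Matrix genes were higher in Lhasa White in number, with larger differences in the W-positive pair. Of 35 tested fibroblast and matrix genes, 26 (74.3%) were higher in both pairs and 0 lower, against 35.2% and 24% of all genes. In limma, 14 of the 35 lay at an unadjusted p under 0.05, all higher, against 3.09% higher and 1.3% lower over all genes. The medians were 1.14 in the W-positive and 0.16 in the W-negative pair. COL14A1, a fibril-associated collagen gene, was at 86.8 and 151 RPKM in Lhasa White, against 61.1 and 47.3 RPKM in White Leghorn (1.08, SE 0.19, limma adjusted p = 0.696). TIMP3, an inhibitor of matrix proteases, was even between the pairs, at 19.1 and 18.4 RPKM in Lhasa White and 10.5 and 9.73 RPKM in White Leghorn (0.83, SE 0.18). COL3A1, a fibrillar collagen gene named after its values were seen, stood at 419 and 783 RPKM in Lhasa White, against 340 and 253 RPKM in White Leghorn.

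The elastic fibre genes rested on Lhasa White 2. FBLN5, which helps to assemble elastic fibres, lay at 7.4 and 49.0 RPKM in Lhasa White, against 4.99 and 2.57 RPKM in White Leghorn. FBLN2, its relative, was at 35.7 and 109 RPKM in the Lhasa White libraries and at 21.9 and 23.0 RPKM in White Leghorn. In both genes Lhasa White 1 lay above White Leghorn too, by a smaller margin. Marker sums moved with this: the 35 genes summed to 3698 and 8411 RPKM in Lhasa White and to 3497 and 3289 RPKM in White Leghorn, and the part of tissue makeup in the result was not tested.

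Extracellular regulators of BMP signalling were among the genes higher in Lhasa White. The antagonist genes BMPER and GREM1, whose products bind BMPs outside the cell, were low in both breeds. BMPER lay at 1.46 and 1.81 RPKM in Lhasa White, against 0.484 and 0.257 RPKM in White Leghorn (0.95, SE 0.25), with 0.92 in the W-positive and 0.97 in the W-negative pair. GREM1 lay at 1.23 and 3.58 RPKM in the Lhasa White libraries and at 0.470 and 0.301 RPKM in White Leghorn. FSTL1, a secreted follistatin relative, stood at 244 and 411 RPKM in the Lhasa White libraries and at 222 and 195 RPKM in White Leghorn. Lhasa White stood above all 6 other libraries for these 3 genes, as it did for BMP3. They were named for the smallest p of their list, which favours such ranks, held by 4.02% of all tested genes. Of the 29 tested genes of the list, 15 (51.7%) were higher and 2 (6.90%) lower in both pairs, against 35.2% and 24% of all genes. The medians were 0.89 in the W-positive and 0.12 in the W-negative pair. In limma, 6 of the 29 lay at an unadjusted p under 0.05, all higher, against 3.09% higher and 1.3% lower over all genes.

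FGF genes were mostly higher, by little in the W-negative pair. Of 20 tested, 16 (80%) were higher and 2 (10%) lower in both pairs, against 35.2% and 24% of all genes, with medians of 0.54 and 0.09, and 0 lay at an unadjusted p under 0.05. The receptor gene FGFR3 lay at 0.993 and 2.29 RPKM in the Lhasa White libraries and at 0.546 and 0.534 RPKM in White Leghorn. IL17RD, whose product SEF dampens FGF receptors, was an exception at 4.05 and 2.71 RPKM in Lhasa White, against 4.25 and 4.29 RPKM in White Leghorn (-0.28, SE 0.22). It was far lower in Linzhi Tibetan, at 0.993 and 1.10 RPKM. Among 20 basement membrane genes, 12 (60%) were higher and 4 (20%) lower in both pairs. LAMA1, a laminin chain gene, was one of the lower ones, at 0.666 and 0.268 RPKM in Lhasa White, against 1.21 and 1.87 RPKM in White Leghorn (-0.79, SE 0.26). Linzhi Tibetan lay near Lhasa White at 0.481 and 0.221 RPKM, and Chahua higher at 3.79 and 2.93 RPKM. NID1 and LAMB1, which encode the linker nidogen 1 and a laminin chain, lay higher in Lhasa White by 0.57 (SE 0.20) and 0.41 (SE 0.16).

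Protein folding genes were higher in both pairs more often than all genes, and lower slightly more often too. Of 40 tested, 19 (47.5%) were higher and 11 (27.5%) lower in both pairs, against 35.2% and 24% of all tested genes, with medians of 0.07 and 0.13. In limma, 4 of the 40 lay at an unadjusted p under 0.05, all higher, against 3.09% higher and 1.3% lower over all genes. HSPA8, the constitutive HSP70 chaperone gene, lay at 182 and 201 RPKM in Lhasa White, against 154 and 143 RPKM in White Leghorn (0.36, SE 0.15, limma adjusted p = 1). DNAJA1, a Z-linked HSP70 co-chaperone gene, was at 42.0 and 43.5 RPKM in the Lhasa White libraries and at 28.8 and 31.3 RPKM in White Leghorn (0.50, SE 0.16). SERPINH1, the collagen chaperone gene, stood at 158 and 218 RPKM in the Lhasa White libraries and at 128 and 120 RPKM in White Leghorn. Lhasa White was above all 6 other libraries for each of the 3, against 4.02% of all tested genes. Their choice by small p favours this.

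Remaining genes with small p on the higher side were C1QTNF2, RSFR and CXCR7. C1QTNF2, a secreted C1q-like protein gene, lay at 6.28 and 10.4 RPKM in the Lhasa White libraries and at 3.84 and 2.89 RPKM in White Leghorn (1.07, SE 0.20, limma adjusted p = 0.755). RSFR, of the RNase superfamily, was at 11.0 and 14.6 RPKM in the Lhasa White libraries and at 6.43 and 5.05 RPKM in White Leghorn, even between the pairs at 1.07 and 0.99. CXCR7, a scavenging receptor for the chemokine CXCL12, stood at 39.4 and 57.0 RPKM in the Lhasa White libraries and at 29.7 and 26.1 RPKM in White Leghorn (0.75, SE 0.15). EGR1, an immediate early transcription factor gene, lay at 16.7 and 30.9 RPKM in the Lhasa White libraries and at 14.7 and 12.3 RPKM in White Leghorn. NQO1, an antioxidant quinone reductase gene, was at 4.74 and 7.85 RPKM in the Lhasa White libraries and at 3.60 and 3.01 RPKM in White Leghorn. The breeds did not overlap in any of these 5 genes, which their choice by small p favours. Over all tested genes, 25.1% had Lhasa White above White Leghorn without overlap. The antioxidant list of NQO1 leaned the other way. Of its 38 tested genes, 15 (39.5%) were lower and 9 (23.7%) higher in both pairs, against 24% and 35.2% of all genes.

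On its own, the W-positive pair differed far more than the W-negative one. In it, 535 genes (4.63%) were at least 2-fold higher and 147 (1.27%) at least 2-fold lower in Lhasa White 2, 5.9% in all. In the W-negative pair, 136 (1.18%) were higher and 83 (0.718%) lower in Lhasa White 1, 1.9% in all. One gene passed the test in the W-positive pair, 0.00865% of those tested, and it was ELN, the gene of elastin, the stretchable protein of arterial walls. ELN lay at 110 and 1468 RPKM in Lhasa White, against 75.4 and 67.5 RPKM in White Leghorn. Its difference was 4.27 in the W-positive pair (SE 0.30, limma adjusted p = 0.0466) and 0.70 in the W-negative pair. In all, 638 genes (5.52%) lay at an unadjusted p under 0.05 in the W-positive pair. The W-positive call also ends under 4 other settings of the analysis given at the close. No gene passed in the W-negative pair in limma, where 138 (1.19%) lay at an unadjusted p under 0.05 and the smallest adjusted p was 0.292.

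The difference between the pairs was tested directly. No gene passed in limma: 279 (2.41%) lay at an unadjusted p under 0.05, and the smallest adjusted p was 1. ELN had the smallest p in that test too, with a difference between the pairs of 3.57. A test of 1 library against another in each pair takes its spread from the other 2 breeds, and the median standard error of a pair difference was 0.37.

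Some of the largest differences between Lhasa White 2 and the other 3 libraries were in genes known from atrium, vessel wall and nerve. BMP-10, a growth factor gene of the atrial wall, stood at 0.745 and 290 RPKM in Lhasa White, against 1.54 and 0.973 RPKM in White Leghorn. KCNJ5, which encodes a potassium channel pore of atrial and pacemaker cells, lay at 1.84 and 88.9 RPKM in the Lhasa White libraries and at 0.887 and 0.906 RPKM in White Leghorn. MYH7, a myosin heavy chain gene, was at 7.07 and 1458 RPKM in Lhasa White, against 3.56 and 2.84 RPKM in White Leghorn, and so counts among the 31 genes although Lhasa White 1 was only 1.07 above White Leghorn 2. Chahua 2 was also above Chahua 1 here, at 22.4 against 3.93 RPKM for BMP-10 and 8.67 against 1.19 RPKM for KCNJ5. MYH7 had 115 RPKM in Chahua 2 and 1.03 RPKM in Chahua 1. ELN did not follow, at 157 RPKM in Chahua 1 and 122 RPKM in Chahua 2. The spread of Chahua enters the single-pair tests, where the SE was 2.33 for MYH7 and 0.95 for BMP-10, against 0.30 for ELN. Some markers of ventricle were lower in Lhasa White 2. IRX4, a ventricular transcription factor gene, stood at 72.1 and 16.2 RPKM in Lhasa White, against 77.9 and 90.9 RPKM in White Leghorn. MYH15, a ventricular myosin heavy chain gene in the chick, lay at 4134 and 1288 RPKM in the Lhasa White libraries and at 3622 and 3839 RPKM in White Leghorn. Of the 9 tested ventricular genes, 3 (33.3%) were lower and 2 (22.2%) higher in both pairs, against 24% and 35.2% of all genes. The other 4 were mixed. LBH, on the same list, lay at 132 and 178 RPKM in Lhasa White, against 105 and 126 RPKM in White Leghorn. GJA1, given above, is also on it and was higher in Lhasa White.

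The marker lists give the sums. The 12 tested atrial genes summed to 2300 and 3873 RPKM in Lhasa White and to 1819 and 1557 RPKM in White Leghorn. Without MYH7, the other 11 summed to 2292 and 2415 RPKM in Lhasa White and to 1815 and 1554 RPKM in White Leghorn, so MYH7 made most of the gap between the Lhasa White libraries. BMP-10 and KCNJ5 together rose by more than that sum did, so the rest of the list summed lower in Lhasa White 2 than in Lhasa White 1. Of the 12 atrial genes, 5 (41.7%) were higher and 1 (8.33%) lower in both pairs, against 35.2% and 24% of all genes. The other 6 were mixed. The 9 ventricular genes summed to 24839 and 18797 RPKM in Lhasa White and to 24084 and 24158 RPKM in White Leghorn. The 12 nerve and Schwann cell genes summed to 92.0 and 157 RPKM in Lhasa White and to 63.4 and 82.5 RPKM in White Leghorn, and Chahua 2 was higher still at 213 RPKM. STMN2, a gene of growing axons, was at 0.307 and 32.2 RPKM in the Lhasa White libraries and at 0.231 and 0 RPKM in White Leghorn. It had 0.358 RPKM in Chahua 1 and 9.78 RPKM in Chahua 2. HTRA3, LTBP2 and FMOD, of vessel wall and connective tissue and chosen after their values were seen, had differences of 2.91, 1.87 and 4.08 in the W-positive pair and 0.32, -0.53 and 0.00 in the W-negative pair. How far the share of atrium, great vessels and nerve in a dissected heart sets these values was not tested. In the pair without Lhasa White 2, GBP had a difference of -2.42, NXPH2 2.34, ABCC9 -1.72, ADM 1.39 and BMP3 1.34. All of them count among the genes past 2-fold the same way in both pairs, so values past 2-fold here were given in advance.

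Lhasa White 1 in turn was high in white blood cell granule genes. GAL1, GAL6 and GAL7 encode avian beta-defensins, CATHL2 a cathelicidin, and these antimicrobial peptides are stored in the granules of heterophils, the birds' counterpart of neutrophils. They are among the 24 genes past 2-fold in opposite ways, with LECT2, which encodes a secreted leukocyte-derived protein, and were named after their values were seen. GAL1 lay at 59.0 and 9.03 RPKM in Lhasa White, against 21.0 and 8.27 RPKM in White Leghorn. CATHL2 lay at 36.1 and 6.17 RPKM in Lhasa White, against 15.8 and 6.61 RPKM in White Leghorn. LECT2 lay at 43.4 and 6.72 RPKM in the Lhasa White libraries and at 14.5 and 7.34 RPKM in White Leghorn.

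Library 1 was thus the higher one in both breeds for all 5 genes, whatever its W state. The 5 genes were 1.77 to 2.69 higher in Lhasa White in the W-negative pair, and had differences of -1.29 to -1.01 in the W-positive pair. Each of the 5 was highest in Lhasa White 1 and lowest in Linzhi Tibetan 1 among all 8 libraries, where LECT2 had 0.564 RPKM. HBAA, an alpha globin gene of red cells, stood at 16344 and 7107 RPKM in the Lhasa White libraries and at 12607 and 10571 RPKM in White Leghorn. The 14 tested leukocyte genes of the marker list, mostly of macrophages and lymphocytes, summed to 42.0 and 56.3 RPKM in Lhasa White and to 38.1 and 33.8 RPKM in White Leghorn, so they did not follow the granule genes. The part of blood left in the hearts was not tested.

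**Figure D5:**
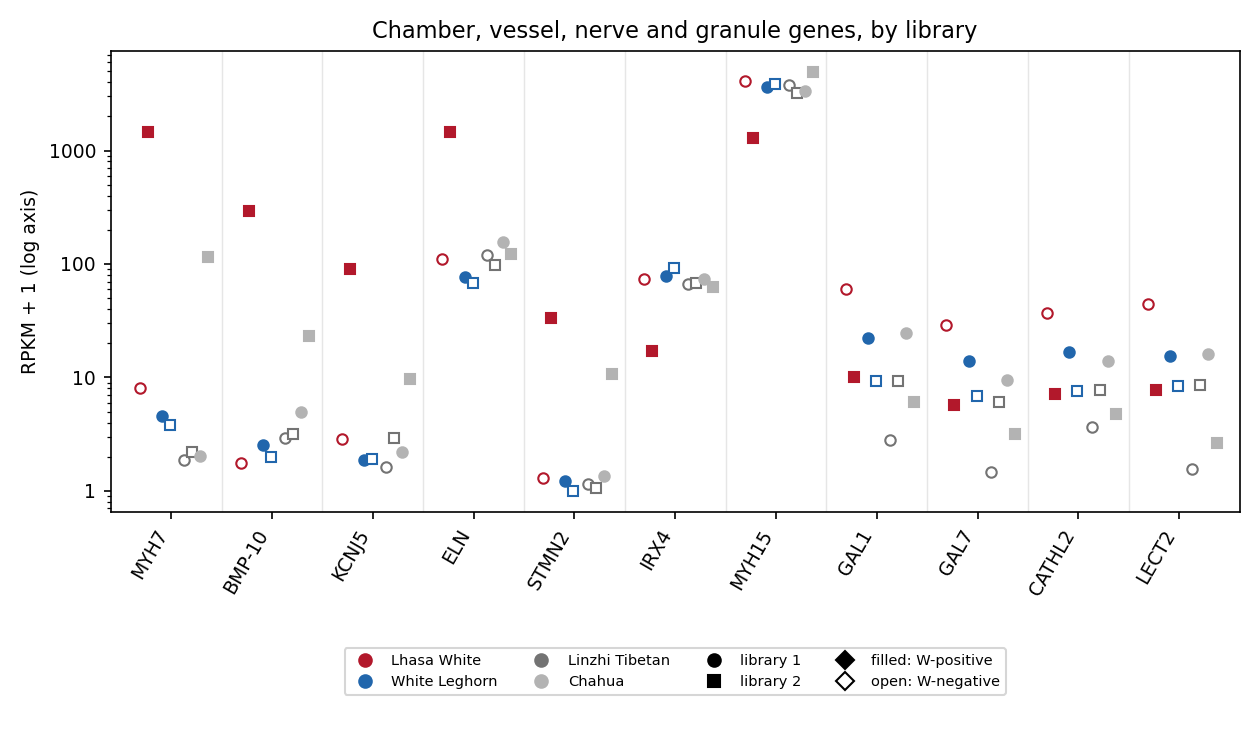
RPKM + 1 on a log axis in each library for 11 genes, with Lhasa White (red) left of White Leghorn (blue), Linzhi Tibetan (dark grey) and Chahua (light grey), circles for library 1, squares for library 2, and filled symbols for W-positive libraries. Lhasa White 2 (red square) is far above the rest in MYH7, BMP-10, KCNJ5, ELN and STMN2 and below them in IRX4 and MYH15. Lhasa White 1 (red circle) is the highest in GAL1, GAL7, CATHL2 and LECT2.

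B-G and IL20RA, also named after their values were seen, differed mainly in the W-negative pair. IL20RA, a cytokine receptor chain gene, lay at 19.96 and 5.74 RPKM in Lhasa White, against 8.66 and 0.773 RPKM in White Leghorn (3.56 in the W-negative pair and -0.52 in the W-positive pair). B-G, of a polymorphic butyrophilin-like gene family of the chicken MHC, was at 100.02 and 77.1 RPKM in the Lhasa White libraries and at 69.6 and 8.97 RPKM in White Leghorn. White Leghorn 2 held the lowest of the 8 values for both genes. Reads of the B-G family may be split between its members, which these values cannot resolve.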

How the data were processed

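Per the labels' protocols, total RNA of the hearts was isolated with TRIzol, and an Illumina mRNA-Seq kit gave the libraries. For each of 15873 Ensembl gene identifiers the authors deposited RPKM values in 8 libraries. The submitters' processing notes name BWA, with no version. Build, gene models, counting, filters and strand use are not stated there or in the labels.

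Breeds came from the labels, and W state from W-linked transcripts. Genes with at least 1 RPKM in at least 2 libraries were tested (11556 genes) on log2(RPKM + 1), a pseudocount of 1, with limma 3.58.1 in R 4.3.3 (variance trend, empirical Bayes). The fit had 1 mean per breed and W state as covariate, with 3 residual degrees of freedom, so that the contrast is the mean of both matched pairs. Single pairs and their difference were tested with 1 mean per Lhasa White and White Leghorn library and the spread of Linzhi Tibetan and Chahua (2 residual degrees of freedom). Benjamini-Hochberg adjustment ran over all genes tested.

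Reads were recovered as the smallest whole numbers that give back the RPKM values. They came out whole for 99.9937% of genes within 0.05 reads, and for 5 of 500 genes with library depths shifted as a control, and served for voom and for depth. Read numbers cover counting error only. The limma test between the breeds, not the recovery of reads, was tried on simulated log2 values. Their noise was drawn independently for each gene and library, so the trial does not cover a library that departs in many genes at once. Its outcome is not reported here. Python 3.11.15 with NumPy 2.4.6, pandas 2.3.3 and matplotlib 3.10.9 was used for the rest. The table gives no symbol for 2730 genes, and by symbol 12270 genes matched a chromosome in GRCg7b. No sequences are shown.

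The comparison, the 33 gene lists and the rule for named genes were chosen with earlier results of these data known. The rule takes up to 12 passing genes a direction, filled to 10 by smallest p, up to 10 a direction past 2-fold in both pairs, up to 6 a direction passing the difference of the pairs, up to 4 per list by smallest p, and fixed oxygen, selection and check genes. Of the lists, 30 are plotted, and the lists of W-linked, liver and lung or thymus genes, with 5, 3 and 1 tested members, served as checks. With replicate numbers as pairs, deviations from the breed means correlated at -0.33 over Lhasa White and White Leghorn. The numbers cross with W state here, so matching by W state gives 0.33, and 0.23 without Z and W genes. No label says that a number marks a shared batch, so the numbers were not used as a block. The values of some genes that the rule names are not reported here.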

Additional observations from a re-analysis of the deposited data

How the results depend on the processing

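Between the breeds, 0 genes passed under every setting tried except without Lhasa White 1 or White Leghorn 2, where the W-positive pair alone remains and 1 gene, ELN, passed (0 to 1 over the fits that leave out 1 library). Genes at an unadjusted p under 0.05 numbered 139 without Lhasa White 2 or White Leghorn 1, 826 and 806 with only the 4 libraries fitted with and without W state, and 334 to 763 otherwise, against 507. GBP ranged from -3.44 to -1.34 over 19 settings and ABCC9 from -2.33 to -1.67, and neither turned. The lowest limma adjusted p was 0.0885 for both, so neither passed in any setting. Fits that change only covariates, or leave out a Linzhi Tibetan or Chahua library, cannot move these differences. Those without a Lhasa White or White Leghorn library return 1 matched pair. Both genes were 2-fold lower in each pair, so their sign was given in advance there. With a replicate block in place of W state 0 genes passed and 456 lay at an unadjusted p under 0.05. That block leaves each difference between the breeds as it was, so no sign could turn. Crossing the replicate numbers gives the W matching itself.

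Genes past 2-fold the same way in both pairs numbered 80 higher and 33 lower at a pseudocount of 0.25. They numbered 5 and 4 at a pseudocount of 5, and 15 and 7 at a mean of at least 5 RPKM. That filter on the mean only drops genes, so its 15 and 7 had to be among the 31 and 15. Of the 31 and 15, 28 and 15 stayed past 2-fold under median ratio scaling, and 22 and 15 under quantile normalization. Leaving out a Lhasa White or White Leghorn library leaves 1 pair and no such count. The single-pair tests depended on the settings. Calls in the W-positive pair numbered 0 at a pseudocount of 0.25, without a filter, under median ratio scaling and under quantile normalization, 2 at a pseudocount of 5, and 3 to 85 with a Linzhi Tibetan or Chahua library left out (85 and 79 without Linzhi Tibetan 1 and 2, 3 and 3 without Chahua 1 and 2), against 1. In the W-negative pair they numbered 1 at a pseudocount of 5, 108 without a filter, 14 at a mean of at least 5 RPKM and 0 to 9 with a library left out, against 0. For the difference of the pairs they numbered 71 without a filter, 14 at a mean of at least 5 RPKM and 0 to 14 with a library left out, against 0. The cause was not tested, beyond the changed numbers of genes and libraries.

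Differences turned in sign for few named genes, mostly where 1 pair remains. Over the fits that leave out 1 library, IL20RA ranged from -0.52 to 3.56, GAL1 from -1.13 to 2.69, GAL6 from -1.27 to 1.77, GAL7 from -1.29 to 2.09, CATHL2 from -1.23 to 2.29 and LECT2 from -1.01 to 2.41, each lowest without Lhasa White 1 or White Leghorn 2. Likewise MYH15 ranged from -1.49 to 0.11, HBAA from -0.83 to 0.63, BMP-10 from -0.18 to 6.84, LTBP2 from -0.53 to 1.87, EGLN1 from -0.087 to 0.23 and KCNJ11 from -0.21 to 1.04, with these signs turned without Lhasa White 2 or White Leghorn 1. HBAA had 0.051 under quantile normalization. Of the 108 genes followed over the settings, the others kept their direction in every setting that gave them a value. Some named genes were not followed, among them ADARB1 and PPAR, which differed in sign between the pairs. So did ATP5A1W, at -0.04 in the W-positive and 2.01 in the W-negative pair, and HINTW (ENSGALG00000022674), at -0.46 and 2.30. With 2 libraries per breed, the median standard error of a difference was 0.23, which limits what small differences can show.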

Other observations

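Lhasa White 1, counted as W-negative, held a trace of W-linked transcripts at a low share of the level in Lhasa White 2. ATP5A1W was at 1.01% of that level, SPINW, a W-linked spindlin gene, at 0.906%, and HINTW (the copy ENSGALG00000022674) at 1%, while the other HINTW copy, ENSGALG00000022683, was at 1.7% and WPKCI at 0.423%. In White Leghorn 2 the share of White Leghorn 1 was 0.0589% for ATP5A1W and 0 for the other 4.

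The deposited table lists 7 genes ahead of the rest, which are sorted by identifier. They are HSPA8, ADARB1, VEGFC, HSP90AA1, BMP4, PPAR and GBP. GBP is, of the genes with a symbol, the one with the smallest p between Lhasa White and White Leghorn. HSPA8, with 0.38 and 0.34, is among the 35.2% of all tested genes higher in both pairs. So are VEGFC, HSP90AA1 and BMP4, while ADARB1 and PPAR differed in sign between the pairs.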
